A study of Mus musculus with 12 samples.

Results

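The 10 genes described here are *Gm10419*, *Podxl*, *Map1b*, *Pim2*, *Fyb*, *Clec10a*, *Vim*, *Slc6a15*, *Trim47*, and *Rassf3*, whose expression differed in opposite directions after *Rad21* knockdown in 2 settings. They were chosen by the sign of the change between *Rad21* shRNA (shRad21) and control luciferase shRNA (shLuci), which differed between cultured cells and cells reisolated from transplanted mice, and they are 10 of the 46078 genes in the counts. The sign and size of these changes therefore chose the genes and are given as a description, without a test. In 7 of the genes (*Gm10419*, *Podxl*, *Map1b*, *Pim2*, *Fyb*, *Slc6a15*, and *Trim47*) the level with shRad21 lay below that with shLuci in culture and above it in vivo, and in the other 3 (*Clec10a*, *Vim*, and *Rassf3*) it was higher in culture and lower in vivo.

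RNA-seq was performed on 12 libraries of hematopoietic stem and progenitor cells (HSPCs) from bone marrow of C57BL/6 mice, in 4 groups of 3. For the culture groups, LSK cells (lineage-negative, Sca-1+, c-Kit+) were infected with lentivirus and kept for 3 d, and cells positive for GFP and Sca-1 and negative for CD48 were then purified. For the in vivo groups, infected LSK cells were transplanted into lethally irradiated mice, and GFP+ LSK cells were reisolated after 3 months as the labels give it. The study's methods give a later time. Each setting had an shLuci group and an shRad21 group, so that the controls also carried a virus, a shRNA, and GFP. Cells were infected in serum-free medium with thrombopoietin and stem cell factor. The age of the mice and which shRNA against *Rad21* was used for sequencing were not given in the sources used here. Culture libraries were made with TruSeq RNA v2 and in vivo libraries with SMART-Seq v4 and Nextera XT, so setting, sort, time, and kit cannot be told apart. Nothing in the labels states that replicates came from separate cultures or animals, and p-values then measure only the spread between these libraries.

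Total counts per library ranged from 15235129 to 29846689, and between 21502 and 26938 genes had at least 1 count. *Rad21*, the targeted gene, had a mean of 402 ± 18.4 TMM-normalized CPM (counts scaled to a library of fixed size; SD, n = 3) in shLuci culture cells and 141 ± 12.8 in shRad21 culture cells. In vivo the means were 120 ± 2.58 and 45.2 ± 2.45, and every shRad21 library lay below every shLuci library of its setting. The 10 markers of LSK cells and hematopoietic stem cells (HSCs), among them *Kit*, *Ly6a* (encoding Sca-1), and *Cd34*, were detected in all libraries and summed to between 3000 and 4540 CPM. In bulk samples, fewer cells of a type and less RNA per cell cannot be told apart.

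*Rad21* encodes the kleisin subunit of cohesin, a ring-shaped complex that holds sister chromatids together and extrudes chromatin loops. Through these loops cohesin shapes contacts between enhancers and promoters, and cohesin genes are known to be mutated in myeloid malignancies. The 10 genes do not form a pathway. They encode a surface sialomucin (*Podxl*), parts of the cytoskeleton (*Map1b* and *Vim*), a survival kinase (*Pim2*), a signaling adaptor (*Fyb*), a lectin (*Clec10a*), an amino acid transporter (*Slc6a15*), a protein of the TRIM ubiquitin ligase family (*Trim47*), a Ras-association domain protein (*Rassf3*), and a long intergenic noncoding RNA (lincRNA; *Gm10419*).

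Promoters of 6 of the 10 genes (*Vim*, *Gm10419*, *Trim47*, *Map1b*, *Fyb*, and *Pim2*) were matched by symbol in a RefSeq table of GRCm38.p6. Each window ran from 250 bases before to 50 bases after the transcription start. The upstream parts of 3 of them are printed 5′ to 3′. These genes were lower with shRad21 in culture and higher in vivo, as were *Gm10419* and *Trim47*, whose sequences are not printed. In *Pim2* the last 44 bases before the start lie in annotated exons and are left out. In *Map1b* 224 of the 250 upstream bases lie in annotated exons of genes that are not protein coding, and these are printed. The *Fyb* start used, at position 6579847, lies inside the gene span of chr15:6522853-6663313, so the printed bases do not precede the whole gene. The starts used for *Trim47* (116110235), *Vim* (13574311), and *Gm10419* (108367937) also lie inside the spans of their genes. Capitals mark matches, on either strand, to the searched motifs that these windows hold, which are GGGCGG for SP1, TATAAA for the TATA box, and AGATAA for GATA factors. The *Pim2* sequence is chrX:7878056-7878261 (plus strand), the *Map1b* sequence is chr13:99516603-99516852 (minus strand), and the *Fyb* sequence is chr15:6579597-6579846 (plus strand).
Pim2: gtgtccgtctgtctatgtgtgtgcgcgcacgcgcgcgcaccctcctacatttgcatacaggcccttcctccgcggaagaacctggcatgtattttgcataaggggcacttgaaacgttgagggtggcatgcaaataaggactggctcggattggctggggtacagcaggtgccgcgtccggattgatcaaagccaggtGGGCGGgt
Map1b: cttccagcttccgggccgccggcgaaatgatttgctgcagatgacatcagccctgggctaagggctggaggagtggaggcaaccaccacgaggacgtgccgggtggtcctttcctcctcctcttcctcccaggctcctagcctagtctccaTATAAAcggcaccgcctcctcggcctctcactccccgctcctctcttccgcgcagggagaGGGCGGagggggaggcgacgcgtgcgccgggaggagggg
Fyb: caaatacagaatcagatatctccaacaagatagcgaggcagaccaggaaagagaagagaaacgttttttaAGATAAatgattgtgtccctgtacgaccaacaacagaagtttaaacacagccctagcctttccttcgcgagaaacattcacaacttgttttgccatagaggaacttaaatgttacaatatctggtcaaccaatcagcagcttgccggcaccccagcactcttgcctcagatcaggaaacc
Within the 300-base windows, GC content was 62.7% in *Pim2*, 65.7% in *Map1b*, and 42.0% in *Fyb*, against a median of 52.7% over all 32817 promoters in the table. The window of *Gm10419* had 84.0% GC and 60 CpG dinucleotides, where the median promoter had 7. The *Fyb* window held 6 CpGs, and those of *Pim2*, *Trim47*, *Map1b*, and *Vim* held 31, 29, 23, and 11. The SP1 motif was found in the windows of *Gm10419*, *Trim47*, *Map1b*, and *Pim2* and in 35.6% of all promoters. The TATA box was found in *Vim* and *Map1b* (13.6% of all promoters), the GATA motif in *Map1b* and *Fyb* (11.2%), and the NF-κB consensus in *Vim* (8.46%). All 250 upstream bases of the *Vim* window lie in annotated exons of coding genes, as do 236 in *Gm10419* and 11 in *Trim47*. The motif matches in *Vim* thus lie in exonic sequence, and the GC and CpG values of *Gm10419* largely describe such sequence. None of the 6 windows held TGANTCA (AP-1, 7.81% of all promoters), TGTGGT (RUNX, 16.8%), CACGTG (E-box, 7.15%), TGACGTCA (CRE, 1.79%), or CCGCGNGGNGGCAG (CTCF core, 0.0366%). These are matches of letters in short windows, and no binding was measured. Among the 6 promoters, no searched motif was present in all.

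*Gm10419* and *Clec10a* had the largest difference between the culture and in vivo changes among the 10 genes, equal in size and opposite in sign (log2 -4.50 ± 0.292 and 4.50 ± 0.458). *Gm10419* is a lincRNA gene at chr5:108367769-108378239 (plus strand, GRCm38). In culture it had 10.4, 9.18, and 15.2 CPM in the shLuci libraries and 2.45, 2.13, and 1.95 CPM in the shRad21 libraries. In vivo the shLuci libraries had 3.38, 2.38, and 3.18 CPM, and the shRad21 libraries had 13.8, 12.6, and 12.1 CPM. The groups did not overlap in either setting, and the shRad21 level in vivo lay near the shLuci level in culture. The log2 fold change was -2.42 ± 0.22 (SE) in culture, a 5.37-fold lower level, and 2.09 ± 0.171 in vivo, a 4.25-fold higher level. *Gm42517*, annotated as protein coding on the opposite strand, overlaps 2.03% of the exonic bases of *Gm10419*, and since neither kit marks strand, reads in the overlap cannot be told apart. *Gm42517* fell in culture (log2 fold change -1.72, from 1.85 ± 0.276 to 0.574 ± 0.153 CPM; adjusted p = 0.0028 in edgeR). It rose in vivo (1.23, from 1.95 ± 0.391 to 4.65 ± 1.28 CPM; adjusted p = 0.0204), a call that was lost without shLuci in vivo 1 or 3 or shRad21 in vivo 1 or 3, with adjusted p up to 0.082.

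**Figure D1:**
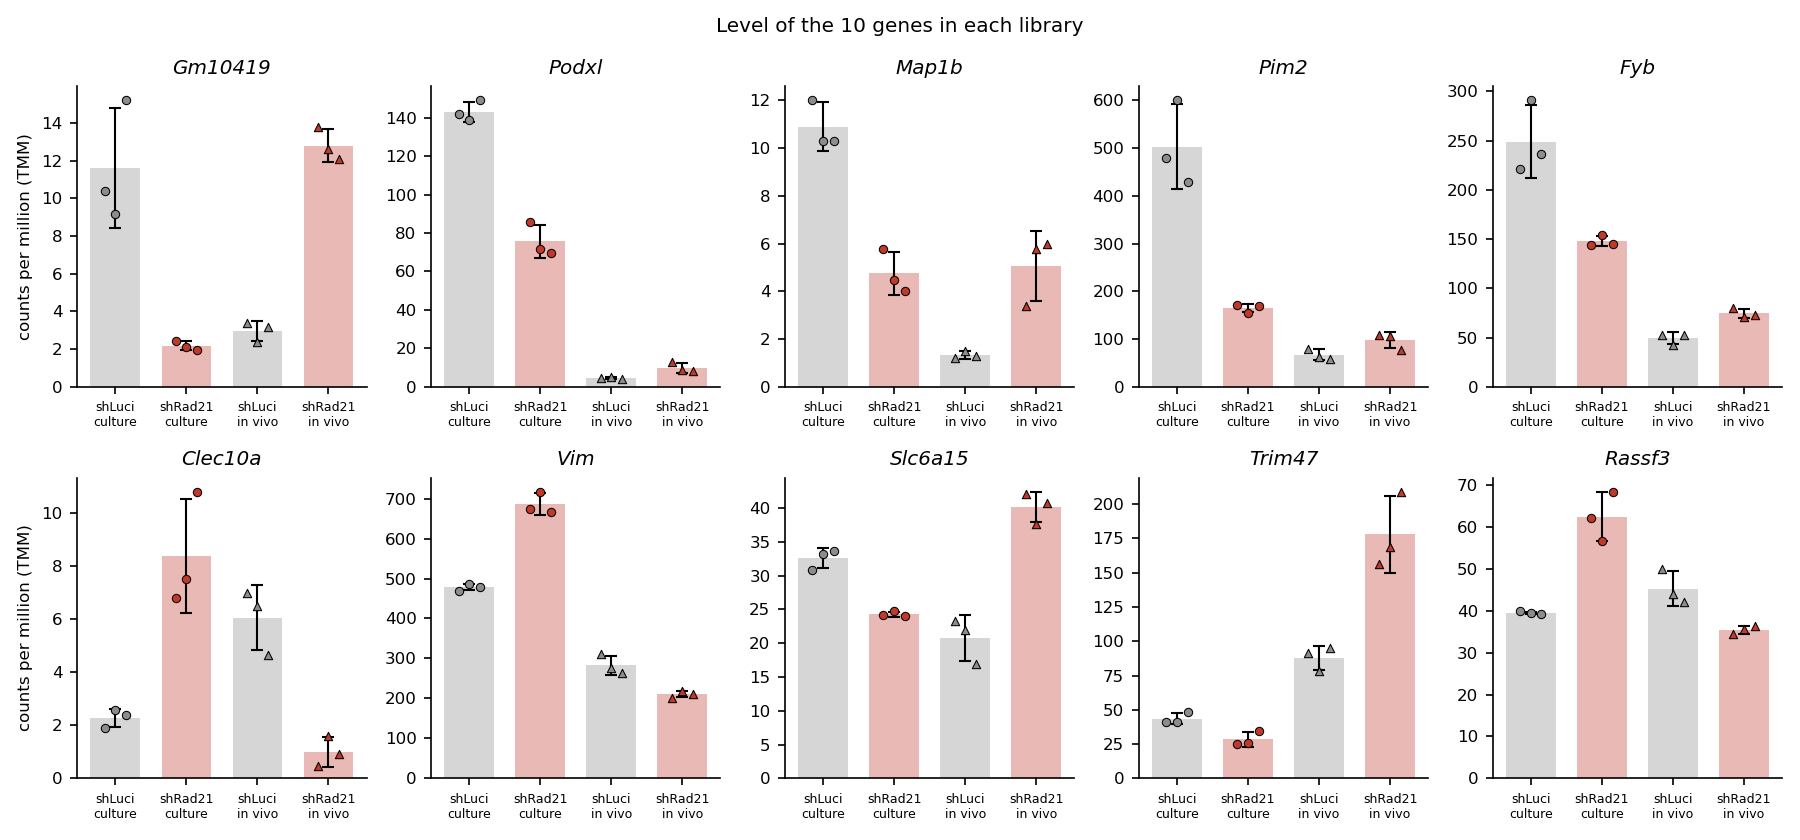
Level of each of the 10 genes in TMM-normalized CPM (vertical axis, starting at 0) in the 4 groups. Bars give the mean of 3 libraries, error bars the SD, and points the single libraries. The red shRad21 bars lie below the gray shLuci bars in culture and above them in vivo for 7 genes, and the reverse holds for *Clec10a*, *Vim*, and *Rassf3*.

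*Podxl* and *Clec10a* encode surface proteins. *Podxl* (podocalyxin) is a sialomucin of the CD34 family that is known from podocytes, endothelium, and early hematopoietic cells, and it lies at chr6:31519488-31563981 (minus strand). Its shLuci libraries in culture had 142.0, 139.0, and 149.1 CPM, and the shRad21 libraries had 85.6, 71.9, and 69.8 CPM. In vivo it was low, with 4.58, 5.19, and 3.96 CPM in shLuci and 12.9, 8.59, and 8.37 CPM in shRad21 libraries. Groups were apart in both settings. The log2 fold change was -0.93 ± 0.092 in culture and 1.10 ± 0.216 in vivo. The excess of culture over in vivo cells was 30.8-fold with shLuci and 7.57-fold with shRad21, so both changes brought the settings closer.

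*Clec10a* (macrophage galactose-type lectin) is known from macrophages and dendritic cells. It lies at chr11:70156197-70170834 (plus strand). In culture it had 1.89, 2.56, and 2.39 CPM with shLuci and 6.78, 7.51, and 10.8 CPM with shRad21. In vivo it had 6.98, 6.50, and 4.66 CPM with shLuci and 0.458, 1.58, and 0.903 CPM with shRad21. The last 3 values rest on 10, 35, and 19 counts, the fewest counts of any group among the 10 genes. The groups did not overlap, and the log2 fold change was 1.86 ± 0.222 in culture and -2.63 ± 0.387 in vivo (3.62-fold higher and 6.20-fold lower). With shLuci the level was 2.68-fold lower in culture than in vivo, and with shRad21 it was 8.45-fold higher in culture.

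The markers of macrophages and dendritic cells did not move with *Clec10a* in culture. Of 9 listed markers, 4 were tested in culture and 3 of them fell, while *Clec10a* was higher. These were *Csf1r* (-1.82, adjusted p = 0.0003), *Cd68* (-1.16, adjusted p = 0.000176), and *Itgax* (-2.25, adjusted p = 0.00383). In vivo, 8 were tested and 4 fell, *Csf1r* (-1.28, adjusted p = 0.0096), *Cd68* (-1.67, adjusted p = 0.000773), *Itgax* (-2.28, adjusted p = 0.00173), and *C1qb* (-1.47, adjusted p = 0.0164). The complement gene *C1qa* was at 0 in all 6 culture libraries. The summed level of the list was 150-209 CPM in shLuci and 158-167 CPM in shRad21 culture libraries, and 500-523 and 464-546 CPM in vivo, and most of it was the lysozyme gene *Lyz2* (134, 143, 442, and 482 CPM in the 4 groups in the same order). The part of such cells in the in vivo level of *Clec10a* was not tested.

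*Map1b* and *Vim* encode proteins of the cytoskeleton. *Map1b*, a microtubule-associated protein best known from growing axons, lies at chr13:99421446-99516540 (minus strand). Its libraries had 12.0, 10.3, and 10.3 CPM with shLuci and 5.78, 4.46, and 4.02 CPM with shRad21 in culture. In vivo they had 1.20, 1.5, and 1.31 CPM with shLuci and 3.39, 5.79, and 5.99 CPM with shRad21. The log2 fold change was -1.20 ± 0.173 in culture and 1.90 ± 0.285 in vivo, and the groups were apart in both. With shRad21 the 2 settings came to nearly the same level (4.75 ± 0.917 CPM in culture and 5.06 ± 1.45 in vivo), whereas with shLuci culture cells had 7.95-fold more.

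*Vim* encodes vimentin, the intermediate filament of mesenchymal and many hematopoietic cells, and lies at chr2:13573927-13582826 (plus strand). In culture it had 470.5, 487.1, and 479.9 CPM with shLuci and 673, 717, and 667 CPM with shRad21. In vivo it had 309.7, 276, and 263 CPM with shLuci and 202, 219, and 211 CPM with shRad21. The changes were small but the libraries were tight, and no groups overlapped. The log2 fold change was 0.51 ± 0.076 in culture and -0.44 ± 0.07 in vivo. In contrast to *Podxl* and *Map1b*, the excess in culture was wider with shRad21 (3.24-fold) than with shLuci (1.66-fold).

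*Pim2* and *Fyb* encode signaling proteins. *Pim2* is a serine/threonine kinase without a need for activation, induced through cytokine receptors and known to promote survival. It lies at chrX:7878262-7883432 (plus strand). The culture libraries had 480.2, 599.9, and 427.6 CPM with shLuci and 170.7, 154.9, and 169.4 CPM with shRad21, a log2 fold change of -1.61 ± 0.118. In vivo the values were 80.2, 63.0, and 58.8 CPM with shLuci and 108.4, 106.5, and 78.0 CPM with shRad21. Here the groups overlapped, because shRad21 in vivo 3 lay below shLuci in vivo 1, and the log2 fold change was 0.52 ± 0.142. *Pim2* was the only 1 of the 10 genes with overlapping groups.

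*Fyb* (ADAP) is an adaptor that binds SLP-76 (*Lcp2*) and the kinase Fyn and links receptor signals to integrins. It lies at chr15:6522853-6663313 (plus strand), and 10.2% of its exonic bases overlap the antisense gene *Gm2245* and the processed pseudogene *Gm7666*. The culture libraries had 221, 291, and 236 CPM with shLuci and 144, 154, and 145 CPM with shRad21. In vivo they had 52.7, 42.2, and 52.9 CPM with shLuci and 80.0, 71.1, and 72.6 CPM with shRad21. The groups were apart in both settings, with log2 fold changes of -0.76 ± 0.104 and 0.58 ± 0.088. *Pim2* and *Fyb*, like *Podxl* and *Map1b*, were lowest in shLuci cells in vivo and highest in shLuci cells in culture.

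*Slc6a15* encodes a sodium-dependent transporter of branched-chain and other neutral amino acids and lies at chr10:103367783-103419377 (plus strand). It had 30.9, 33.2, and 33.7 CPM with shLuci and 24.2, 24.8, and 24.1 CPM with shRad21 in culture, and 23.3, 22.0, and 17.0 CPM with shLuci and 42.1, 37.7, and 40.7 CPM with shRad21 in vivo. The groups were apart, and the log2 fold change was -0.43 ± 0.091 in culture and 0.93 ± 0.132 in vivo. As for *Gm10419*, the setting with the higher level depended on the construct.

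*Trim47* encodes a RING-domain protein of the TRIM family of ubiquitin ligases and lies at chr11:116105752-116127210 (minus strand), where 8.23% of its exonic bases overlap *Trim65* on the same strand. The culture libraries had 41.1, 41.4, and 48.3 CPM with shLuci and 24.7, 26.1, and 34.6 CPM with shRad21. In vivo they had 91.1, 78.1, and 94.8 CPM with shLuci and 156, 169, and 209 CPM with shRad21. No groups overlapped, and the log2 fold change was -0.62 ± 0.129 in culture and 1.0 ± 0.107 in vivo. *Trim47* stood apart from the other 9 genes in that its level was lower in culture with either construct and each change widened that difference, from 2.05-fold with shLuci to 6.27-fold with shRad21.

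*Rassf3* belongs to a family of Ras-association domain proteins that bind Mst kinases, and lies at chr10:121410350-121476347 (minus strand). It had 39.9, 39.5, and 39.2 CPM with shLuci and 62.2, 56.7, and 68.4 CPM with shRad21 in culture. In vivo the values were 49.9, 44.0, and 42.0 CPM with shLuci and 34.4, 35.7, and 36.3 CPM with shRad21. The groups were apart in both settings. The log2 fold change of 0.65 ± 0.089 in culture was larger than that of -0.37 ± 0.09 in vivo, the smallest in vivo change of the 10.

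With an adjusted p under 0.05 in edgeR's quasi-likelihood test as the threshold for differentially expressed genes (DEGs), DEGs made up 14.2% of 15543 genes in culture and 11.0% of 15938 genes in vivo. Of the 14524 genes tested in both settings, 61 (0.42%) were DEGs in both with opposite signs, and all 10 genes were among them, which is how they were chosen. A replicate block in each fit gave 95 of them, and the fit without shRad21 in vivo 3 gave 34. *Slc6a15* was not among them without shRad21 culture 3, nor was *Pim2* without shLuci in vivo 2 or 3 or shRad21 in vivo 1 or 2, nor *Rassf3* without shLuci in vivo 1 or 2 or any shRad21 in vivo library. Groups did not overlap in either setting, with opposite signs, in 9 of the 10 genes and in 2.13% of all 14524. Of the 51 other DEGs with opposite signs, 37 fell in culture and rose in vivo and 14 did the reverse.

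Among the other genes of the first kind, those with the largest of the smaller change were *Jam2*, encoding a junctional adhesion molecule (-1.92 in culture and 1.94 in vivo), *Ehd3* (-1.40 and 1.72), *Ptprk*, a receptor tyrosine phosphatase (-1.99 and 1.37), *Gm42517*, and *Trpc1*, a cation channel subunit (-1.21 and 2.56). Among those of the second kind were *Fgf13* (1.85 and -1.99), *Arpp21* (1.25 and -1.59), *Gfi1*, a transcriptional repressor of myeloid and stem cells (0.98 and -0.97), *P2rx7*, a receptor for extracellular ATP (0.97 and -0.91), and *Cd53*, a tetraspanin of leukocytes (0.75 and -1.03). *Gm10419* ranked before all 60 others by the smaller of its 2 changes, and *Clec10a* ranked before all others that were higher in culture.

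**Figure D2:**
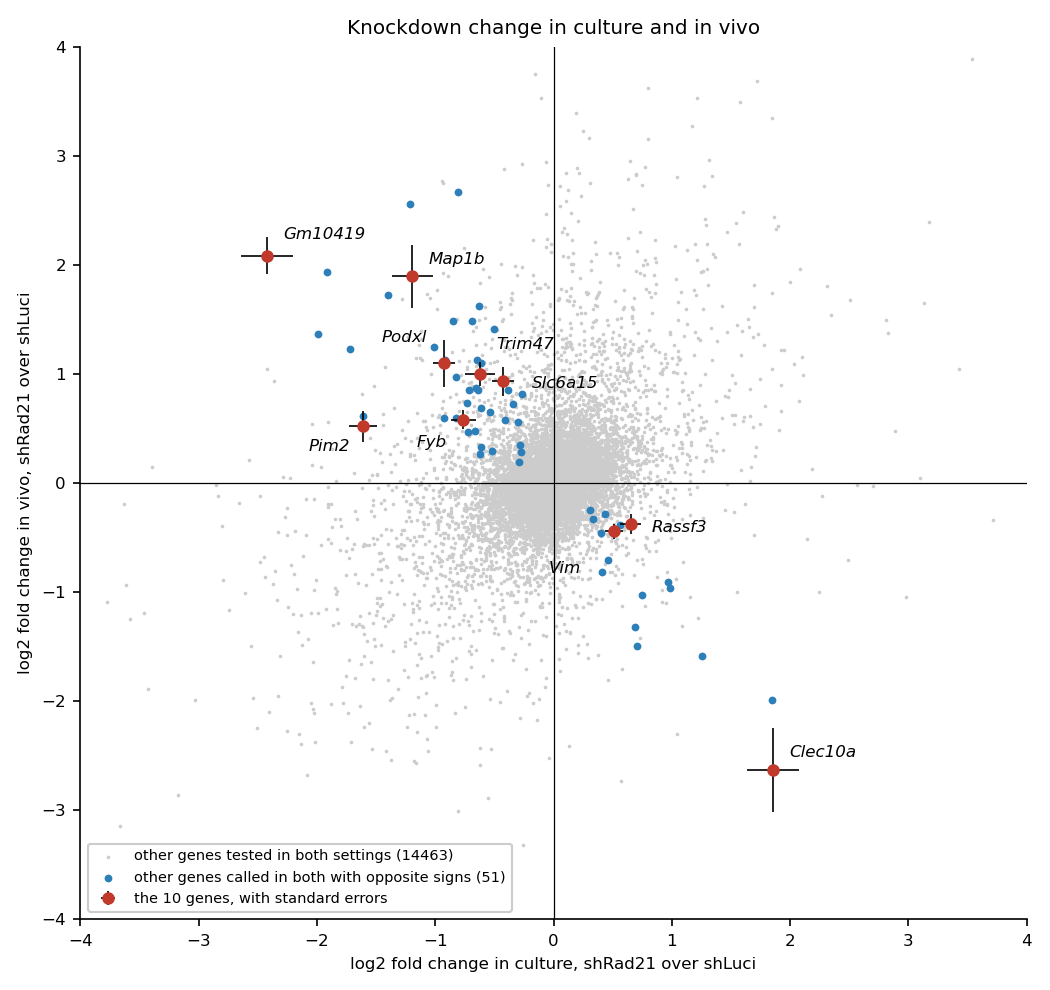
Log2 fold change of shRad21 over shLuci in culture (horizontal axis) and in vivo (vertical axis) for the 14524 genes tested in both settings. The 10 genes (red, with standard errors) and 51 other DEGs with opposite signs (blue) lie in the upper left and lower right by choice, and 10 gray genes lie outside the plotted range of 4 on either axis.

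The difference between settings, averaged over both constructs, was not used to choose the genes. By this measure 8 of the 10 genes passed the threshold, 7 higher in culture and 1 lower. The settings differed so widely that 80.8% of all 17050 genes tested passed, 40.1% higher and 40.7% lower in culture. The share of the 10 genes that passed was thus close to that of all genes. Setting, sort, and kit cannot be told apart in it. *Podxl* was 15.3-fold higher in culture (log2 difference 3.93 ± 0.111, adjusted p = 1.27e-13). It was followed by *Pim2* (1.81 ± 0.103, adjusted p = 2.95e-10), *Fyb* (1.65 ± 0.075, adjusted p = 2.26e-11), *Map1b* (1.45 ± 0.164, adjusted p = 8.93e-07), and *Vim* (1.21 ± 0.048, adjusted p = 4.81e-12). Smaller differences were found for *Clec10a* (0.83 ± 0.228, adjusted p = 0.00362) and *Rassf3* (0.29 ± 0.06, adjusted p = 0.000359), the latter missing the threshold with scaling by library size only (adjusted p = 0.0727). *Trim47* was 3.59-fold lower in culture (-1.84 ± 0.094, adjusted p = 8.22e-11). *Gm10419* (-0.31 ± 0.144, adjusted p = 0.057) and *Slc6a15* (-0.05 ± 0.077, adjusted p = 0.54) did not pass, and *Gm10419* did under 7 of 17 alternatives and *Slc6a15* under upper-quartile scaling and library size only. The median size of the log2 difference was 1.33 over the 10 genes and 0.76 over all genes, and the signed medians were 1.02 and -0.01.

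Levels per exonic length can be compared between genes. In shLuci culture cells *Pim2* was highest (180.0 ± 31.6 CPM per kb), then *Vim* (101 ± 1.76), *Fyb* (46.3 ± 6.90), and *Podxl* (26.1 ± 0.952). *Trim47* (15.9 ± 1.49), *Rassf3* (10.3 ± 0.0813), and *Slc6a15* (4.21 ± 0.192) were intermediate, and *Gm10419* (1.69 ± 0.466), *Clec10a* (0.787 ± 0.121), and *Map1b* (0.686 ± 0.0635) were lowest, the last 2 not differing beyond their spread. In shRad21 culture cells *Vim* was first (145 ± 5.72), ahead of *Pim2* (59.0 ± 3.14), and *Map1b* (0.30 ± 0.0579) and *Gm10419* (0.318 ± 0.0369) were last, within each other's spread. In shLuci cells in vivo the order was led by *Vim* (59.7 ± 5.06), *Trim47* (32.2 ± 3.21), and *Pim2* (24.1 ± 4.05). In shRad21 cells in vivo *Trim47* was first (65.1 ± 10.2), followed by *Vim* (44.5 ± 1.79) and *Pim2* (34.9 ± 6.09). *Map1b* was last in vivo with either construct, at 0.0844 ± 0.00977 and 0.319 ± 0.0913, in shRad21 cells within the spread of *Clec10a* (0.338 ± 0.195).

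**Figure D3:**
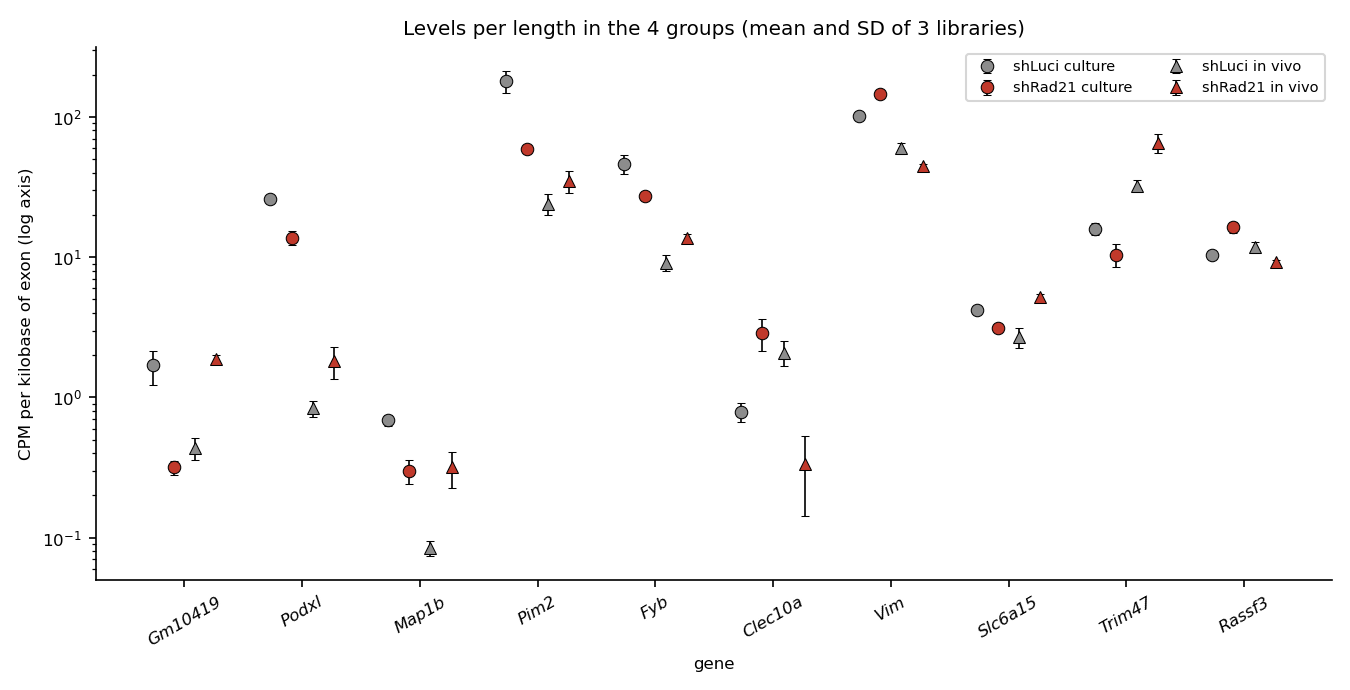
Level of each gene in CPM per kilobase of exon (vertical axis, logarithmic) in the 4 groups, as mean and SD of 3 libraries. Circles are culture and triangles in vivo groups, gray is shLuci and red is shRad21. *Pim2* and *Vim* were at the top in culture, *Trim47* was first in shRad21 cells in vivo, and *Map1b* was last or among the lowest in all 4 groups.

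Across the 12 libraries, which share the difference between settings, log2 levels of *Podxl* followed those of *Fyb* (Pearson's r = 0.975) and *Pim2* (0.917), and *Vim* ran against *Trim47* (-0.974). *Gm10419* ran with *Slc6a15* (0.856) and against *Clec10a* (-0.900). Since the genes were chosen by the signs of their changes in both settings, correlations among the 10 follow in part from that choice. Outside the 10, the gene most like each by this measure was *Nadk* for *Gm10419* (0.888), *Armcx2* for *Podxl* (0.992), *Jph4* for *Map1b* (0.960), *Loxl2* for *Pim2* (0.980), and *Zhx2* for *Fyb* (0.988). It was *Mzf1* for *Clec10a* (0.930), ENSMUSG00000091562 for *Vim* (0.983), *Tspan17* for *Slc6a15* (0.881), *Nr4a2* for *Trim47* (0.987), and *A430018G15Rik* for *Rassf3* (0.926). The best matches were thus weakest for *Slc6a15* and *Gm10419*, the genes with no called difference between settings.

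The nearest tested gene on each side of the 10 genes was examined next, since cohesin acts over stretches of chromatin. Of these 20 neighbors, 17 were tested in culture and 1 rose, and all 20 were tested in vivo, where 1 rose and 2 fell. Over all genes the shares were 14.2% in culture and 11.0% in vivo, so the neighbors lay below the share in culture and above it in vivo. These differences rest on few genes and were not tested. *Clec10a* lies 41.9 kb from *Slc16a11*, which encodes a monocarboxylate transporter. *Slc16a11* fell in vivo from 34.5 ± 6.61 to 3.51 ± 1.12 CPM (log2 fold change -3.32 ± 0.235, adjusted p = 5.37e-05), where *Clec10a* was also lower. In culture it had 1.13 ± 0.336 and 0.932 ± 0.0747 CPM (-0.26 ± 0.296, adjusted p = 0.646), where *Clec10a* was higher. The interaction of knockdown and setting passed the threshold for *Slc16a11* (log2 3.07 ± 0.392, adjusted p = 0.00057), as it did for 4.67% of all 17050 genes. On its other side, *Mgl2*, the close paralog of *Clec10a*, lies at a distance of 18.6 kb. *Mgl2* was not tested in culture, where its mean was 0 and 0.029 CPM, and had 0.819 ± 0.472 and 0.985 ± 0.191 CPM in vivo (adjusted p = 0.817). How reads were counted where the sequences of *Clec10a* and *Mgl2* are alike was not examined.

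The other called neighbors were *St8sia6*, a sialyltransferase gene 68.2 kb from *Vim*, which fell in vivo (-1.66 ± 0.40, adjusted p = 0.0265) where *Vim* was lower, and *Tmtc2*, 1770 kb from *Slc6a15*, which rose in vivo (1.27 ± 0.267, adjusted p = 0.0142) where *Slc6a15* was higher. In culture *Plxna4*, 580 kb from *Podxl*, rose (0.84 ± 0.191, adjusted p = 0.0134) where *Podxl* was lower. Each of these 3 calls was lost with 1 library left out, *St8sia6* without shLuci in vivo 1 or 2 or shRad21 in vivo 1 or 3 (adjusted p up to 0.113), *Tmtc2* without shRad21 in vivo 3 (0.0718), and *Plxna4* without shLuci culture 2 (0.0645). No nearest neighbor beside its gene and closer than *Slc16a11* to *Clec10a* passed the threshold in either setting. *Otud5* and *Slc35a2*, 1.64 and 0.596 kb from *Pim2*, had log2 fold changes of 0.21 ± 0.074 and -0.27 ± 0.083 in culture (adjusted p = 0.0924 and 0.0516), and 0.06 ± 0.070 and -0.06 ± 0.095 in vivo. *Slc35a2* passed in culture when a replicate block was added (adjusted p = 0.037). *Mkln1*, 2.68 kb from *Podxl*, had changes of -0.07 ± 0.077 and 0.03 ± 0.060, and *Mrps27*, 5.88 kb from *Map1b*, of 0.05 ± 0.087 and 0.06 ± 0.079. *Trim65*, which overlaps *Trim47*, had changes of 0.14 ± 0.136 and 0.09 ± 0.141, and *Gm7666*, inside *Fyb*, of -0.15 ± 0.206 and -0.08 ± 0.159, and neither passed the threshold, unlike *Gm42517*, which overlaps *Gm10419* and had its sign in both settings.

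**Figure D4:**
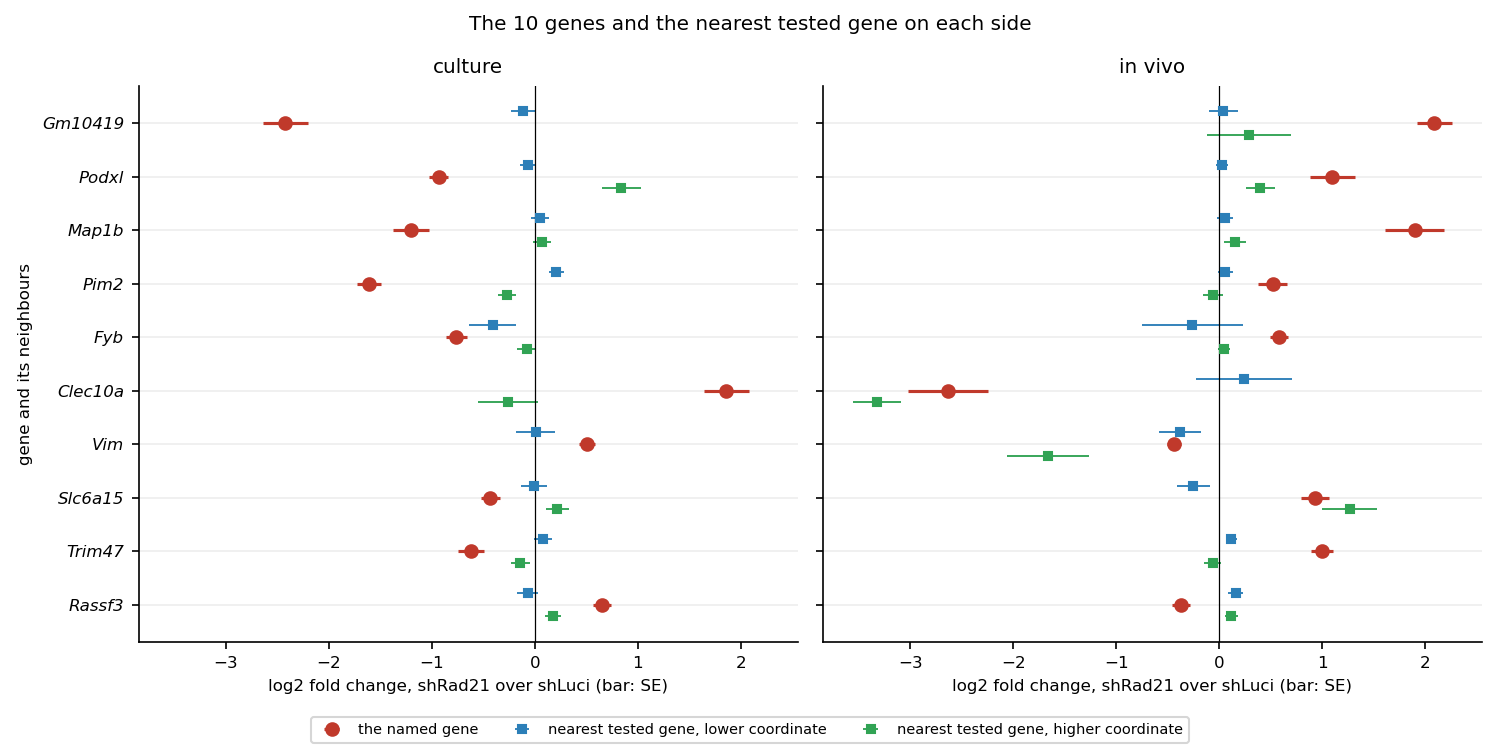
Log2 fold change of shRad21 over shLuci (horizontal axis, bars are SE) of the 10 genes (red circles) and of the nearest tested gene at lower (blue) and higher (green) coordinates, in culture (left) and in vivo (right). Neighbors not tested in a setting are left out. Most neighbors lay near 0, and *Slc16a11* beside *Clec10a* had the lowest in vivo value, -3.32.

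Relatives of the 10 genes were then counted by family, as a description beside the shares of DEGs among all genes given above. Among 7 relatives of *Podxl* (CD34 family and linkers to the actin cortex), 1 of 6 tested rose in culture, and in vivo 1 of 7 rose and 1 fell. *Cd34* itself had changes of 0.20 (adjusted p = 0.127) in culture and -0.26 (adjusted p = 0.0316) in vivo, opposite in sign to those of *Podxl*, with an interaction of 0.47 (adjusted p = 0.00832). The in vivo call of *Cd34* was lost without shLuci in vivo 1 or 2 or shRad21 in vivo 1 or 3 (adjusted p up to 0.131). Among 11 relatives of *Map1b*, 8 were tested in each setting, 1 rose and 1 fell in culture and none passed in vivo. *Map4*, a microtubule-associated protein of nonneuronal cells, rose in culture (0.40, adjusted p = 0.0104), against *Map1b*. Among 16 other intermediate filament genes, 8 were tested in each setting, 3 fell in culture (*Nes*, *Synm*, and *Lmna*), and 2 rose in vivo (*Gfap* and *Krt18*). *Vim*, higher in culture and lower in vivo, thus had the opposite sign to each called filament gene. The culture calls were lost without shRad21 culture 3 in all 3 genes, without shRad21 culture 2 in *Nes* and *Synm*, without shLuci culture 2 in *Synm* and *Lmna*, and without shLuci culture 1 in *Lmna*, with adjusted p up to 0.175 over all alternatives. In vivo, the call of *Gfap* (1.64, adjusted p = 0.0224) was lost without shLuci in vivo 1 or 3 or shRad21 in vivo 1 or 2 (adjusted p up to 0.0885), and that of *Krt18* (0.32, adjusted p = 0.0322) without any 1 in vivo library but shRad21 in vivo 2 (adjusted p up to 0.108).

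Among 12 relatives of *Fyb*, 10 were tested in culture, where 2 rose and 3 fell, and 11 in vivo, where 1 rose and 1 fell. *Lcp2*, which encodes the binding partner SLP-76, fell in culture from 385 ± 37.3 to 192 ± 13.5 CPM (-1.01 ± 0.093, adjusted p = 7.85e-05), as *Fyb* did. In vivo its change was 0.12 ± 0.058 (adjusted p = 0.247), and the interaction passed (-1.12 ± 0.109, adjusted p = 7.67e-05). *Fyn*, the kinase partner, rose in both settings (0.55, adjusted p = 0.00117, and 0.51, adjusted p = 0.0011). Of the other Pim kinases, both were tested, and 1, *Pim3*, fell in culture (-0.43, adjusted p = 0.0331). That call was lost without any 1 of 5 culture libraries, all but shLuci culture 3 (adjusted p up to 0.153), and in vivo *Pim3* had a change of -0.01 (adjusted p = 0.974).

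Among 42 other C-type lectin genes, 10 were tested in culture and 6 fell, none rose, and 16 were tested in vivo, where 2 rose and 1 fell. *Clec12a*, an inhibitory receptor of myeloid cells, fell in both settings (-1.63, adjusted p = 0.00634, and -1.66, adjusted p = 1.79e-05). *Clec2d*, a ligand of NK receptors, fell in culture (-1.56, adjusted p = 1.53e-05), with 0.03 in vivo (adjusted p = 0.960) and an interaction of -1.57 (adjusted p = 0.000501). The direction of *Clec10a* in culture was thus the reverse of that of each called lectin. Among 20 other Slc6a transporters, 7 were tested in culture and 1 fell, *Slc6a8* (-0.69, adjusted p = 0.0493), and none of 6 passed in vivo. The call of *Slc6a8* was lost under 8 of 13 alternatives (adjusted p up to 0.218), among them leaving out any 1 culture library but shRad21 culture 3. Among 66 other Trim genes, 4 of 44 rose and 1 fell in culture, and 5 of 42 rose and 2 fell in vivo. *Trim58* rose in both (1.17, adjusted p = 0.0026, and 0.84, adjusted p = 0.00791), unlike *Trim47*. *Trim6*, named after its values were seen, had the signs of *Trim47*, with -0.24 in culture (adjusted p = 0.121) and 0.78 in vivo (adjusted p = 0.00748). Its interaction was -1.01 (adjusted p = 0.00255). Among 12 relatives of *Rassf3*, 10 were tested in each setting, 1 rose and 1 fell in culture and 1 fell in vivo. *Rassf4* fell in both (-0.66, adjusted p = 0.00208, and -0.79, adjusted p = 0.000363).

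Some genes listed as markers of other cell types moved with knockdown in the libraries in which the 10 genes were measured. Such genes need not mark other cells here, since the study names VWF as a marker of myeloid-biased HSCs. From shLuci to shRad21 in vivo, *Vwf* went from 15.5 to 140 CPM and *Itga2b* from 212 to 432 CPM, most of the megakaryocyte sum. Megakaryocyte markers summed to 252-316 CPM in shLuci and 595-732 CPM in shRad21 libraries in vivo (4 of 6 rose), the setting in which *Podxl* was higher, and to 642-766 and 710-1050 CPM in culture (3 rose and 2 fell of 5), where *Podxl* was lower. Endothelial markers, which include cells known for *Podxl*, summed to 210-284 and 270-382 CPM in culture and 165-217 and 191-221 CPM in vivo (2 of 5 rose in culture and 2 of 4 in vivo), with the defining gene *Cdh5* between 0.0647 and 0.803 CPM in the 4 groups. Stromal markers, which include cells known for *Vim*, summed to 54.5-98.4 and 62.7-101 CPM in culture and 88.7-127 and 89.3-147 CPM in vivo, and these ranges overlapped between constructs (none of 2 tested passed in culture, and 1 of 3 fell in vivo). Most of the stromal sum was *Pdgfrb*, with 72.6 and 77.7 CPM in culture and 98.0 and 112 CPM in vivo (shLuci and shRad21). *Kit* fell in both settings (-1.42, adjusted p = 1.53e-05, and -0.42, adjusted p = 0.00659). Granulocyte markers summed to 1330-1750 CPM in shLuci and 993-1150 CPM in shRad21 libraries in vivo (1 of 6 fell), B cell markers to 83.1-108 and 54.2-71.6 CPM (4 of 6 fell), T and NK cell markers to 298-410 and 239-266 CPM (1 of 3 rose and 1 fell), and erythroid markers to 80.9-116 and 49.6-60.9 CPM (2 of 6 fell). In culture the sums were 13.0-31 and 7.13-14.5 CPM for granulocyte, 26.6-27.0 and 17.4-21.3 CPM for B cell, 21.3-39.1 and 13.4-20.9 CPM for T and NK cell, and 150-187 and 78.7-111 CPM for erythroid markers, with 1 call each, all lower. Mast cell and basophil markers summed to 10.3-19.5 and 24.6-79.1 CPM in culture (1 of 3 rose) and 92.9-117 and 129-208 CPM in vivo (1 of 5 rose). For granulocyte, B cell, T and NK cell, erythroid, and mast cell and basophil markers, the ranges did not overlap between constructs in either setting, except those of granulocyte markers in culture. Some of these sums were mostly a single gene (values for shLuci and shRad21). *Mpo* had 1240 and 797 CPM in vivo among granulocyte markers. *Nkg7* had 333 and 207 CPM in vivo among T and NK cell markers, while *Klrb1c* rose from 4.03 to 45.0 CPM. In culture *Cd79b* had 26.0 and 19.0 CPM among B cell markers, and *Hbb-bt* 151 and 79.8 CPM among erythroid markers. The part of these cell types in the levels of the 10 genes was not tested.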

How the data were processed

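RNA-seq counts of all 12 libraries were used. Per the labels and methods, the authors removed rRNA reads and trimmed the rest before alignment to GRCm38 (TopHat2 2.0.11) and gene counting (HTSeq 0.6.1), and the deposited values are raw counts. The strand setting and annotation release were not given in the sources used here. Groups and replicate numbers came from the labels. Of 46078 genes, 45229 were matched by identifier to GENCODE M21.

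Counts were normalized with TMM in edgeR 4.0.16 (R 4.3.3), filtered with filterByExpr (at least 10 counts, 15 in total), and tested with edgeR's quasi-likelihood test and Benjamini-Hochberg adjustment over all tested genes (threshold 0.05), in each setting separately and, for interaction and setting, in all 12 libraries in 4 groups. The setting contrast averages both constructs. CPM was scaled over all 12 libraries, and correlations used log2 CPM with a prior count of 2. Counts of replicates differed by 6.16 to 22.6 times the sampling variance, so replicate spread rather than depth limits precision, except for genes with few counts. The tests were checked on simulated counts with 200 changed genes. These counts were drawn from means and dispersions fitted by edgeR, without pairing of replicates. The check therefore cannot show how the tests fare where the libraries depart from that model. Replicate numbers paired the culture libraries (correlation of deviations of same-numbered libraries 0.216 to 0.262) but not those in vivo (0.0236 to 0.0694).

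The genes, gene lists, and alternatives were chosen with earlier results of these data known. Named genes are the 10, *Rad21*, the nearest tested gene on each side, the most correlated gene, up to 4 DEGs per list of relatives, and up to 5 other DEGs with opposite signs per direction. Genes overlapping the 10, *Krt18*, and 4 relatives with a called interaction were added after their values were seen. Alternatives were DESeq2 1.42.0, other scalings and filters, a replicate block, a single model, and leaving out each library.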

Additional observations from a re-analysis of the deposited data

Results flagged for a closer look

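The knockdown change differed between culture and in vivo by the interaction test in edgeR for 8 relatives, 2 nearest neighbors, and 1 overlapping gene of the 10 genes. Over all 17050 genes the share was 4.67%. Relatives tested numbered 7 for *Podxl*, 9 for *Map1b*, 9 for *Vim*, 2 for *Pim2*, and 11 for *Fyb*. They numbered 17 for *Clec10a*, 8 for *Slc6a15*, 45 for *Trim47*, and 10 for *Rassf3*, and 20 nearest neighbors were tested. Whether these shares differ from that of all genes was not tested. The log2 interaction (change in culture minus change in vivo) was 0.47 for *Cd34* (adjusted p = 0.00832), 0.51 for *Map4* (adjusted p = 0.0197), -1.12 for *Lcp2* (adjusted p = 7.67e-05), and -1.57 for *Clec2d* (adjusted p = 0.000501). It was -1.01 for *Trim6* (adjusted p = 0.00255), 0.38 for *Skap2* (adjusted p = 0.0297), -0.51 for *Nck2* (adjusted p = 0.035), and 0.60 for *Trim26* (adjusted p = 0.0458), and these 4 were named after their values were seen. For genes beside or overlapping the 10 it was 3.07 for *Slc16a11* (adjusted p = 0.00057), -2.94 for *Gm42517* (adjusted p = 0.00122), and -1.05 for *Tmtc2* (adjusted p = 0.0274). The *Map4* value lost its call without shRad21 culture 2 or 3 (adjusted p = 0.0607), and that of *Tmtc2* without any 1 of 6 libraries (shLuci culture 2, shRad21 culture 1 and 2, shLuci in vivo 1 and 2, and shRad21 in vivo 3; adjusted p up to 0.0785). Those of *Skap2*, *Nck2*, and *Trim26* were lost under 8, 11, and 11 of 18 alternatives, leaving out 1 library in most (adjusted p up to 0.0894, 0.101, and 0.125).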

How the results depend on the processing

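All 10 genes kept the sign of both knockdown changes under every alternative run. The alternatives reused the libraries in which these signs chose the genes. Keeping the sign thus follows largely from that choice and is given as a description. DEGs in culture numbered 2213, with 1352 (without shRad21 culture 2) to 2817 (without shLuci culture 3) when 1 library was left out and 3186 with the replicate block. In vivo there were 1749, 951 (without shRad21 in vivo 3) to 1562 with 1 left out, and 2829 without a filter. The interaction passed for 796 genes, for 492 to 845 with 1 left out (lowest without shRad21 culture 2), for 1283 with DESeq2, and for 1409 without a filter. The difference between settings passed for 13770 genes, and for 13694 to 13976 with 1 left out. DEGs with opposite signs numbered 61, with 34 to 70 when 1 library was left out, 140 without a filter, and 95 with the replicate block. The cause was not tested. For the difference between settings the replicate block could not be fitted, because setting does not vary within a block. Upper-quartile scaling moved the median difference between settings by -0.13 and library size only by -0.17. Of 62 calls for relatives, *Rad21*, and neighbors, 30 held under all alternatives and 32 were lost under 1 or more. Depth limits *Clec10a* in shRad21 cells in vivo (10 to 35 counts) and *Map1b* in shLuci cells in vivo (27 to 31 counts).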
